A study of Mus musculus with 20 samples.

Results

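The 7 genes described here encode the Fos and Jun subunits of the transcription factor AP-1: Fos, Fosb, Fosl1, Fosl2, Jun, Junb and Jund. They were chosen by name, and all 7 were found by Ensembl identifier among the 19722 genes of the 4 h table and the 51912 identifiers of the 24 h table. All 7 also passed the filter on low values in both tables. The libraries came from forebrain slice cultures of mouse pups at postnatal day 4, and every slice received 5% horse serum. At 4 h there were 3 libraries labelled knockout (KO, TSG-6-/-) and 3 wild-type libraries (WT, TSG-6+/+). At 24 h there were 4 KO and 3 heterozygous (Het) female libraries, and 4 KO and 3 Het male libraries. TSG-6, the product of Tnfaip6, is a secreted protein that binds hyaluronan. The control genotype therefore differs between the time points, and no serum-free slices were analysed here. At 24 h the control is heterozygous by title and genotype field, although the protocol text calls it WT. HBSS and DMEM are both named as the serum medium. Whether the replicates of a group were separate animals is not labelled, so a p-value here covers only the spread among libraries, part of which may be technical.

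AP-1 is a dimer of basic leucine zipper proteins. Jun proteins pair with each other or with a Fos protein, while Fos proteins generally need a Jun partner to bind DNA. Fos, Fosb and Junb are immediate early genes: serum factors, depolarisation and stress act through kinases on factors already bound to their promoters, and transcription starts within minutes without new protein synthesis. Transcripts of Fos and several other immediate early genes carry AU-rich elements that speed decay, so a pulse is normally brief. Fosl1 and Fosl2 proteins lack the strong transactivation domain of Fos, and Jund is known as the most constantly expressed Jun gene. In brain, Fos is widely used as a marker of recently active neurons, but glia and vascular cells also induce it after injury or serum.

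The sequences upstream of the 4 genes whose 4 h groups did not overlap are shown because regulatory elements of immediate early genes lie close to the start. KO libraries lay wholly below WT libraries at 4 h for 8.88% of all genes tested. A link between these sequences and the genotype difference was not tested. RefSeq (GRCm38.p6) gave an upstream sequence for 6 of the 7 genes. The 120 bases before the start of 4 of them follow, 5′ to 3′ on the gene's strand, with capitals marking matches to the motifs named below. They lie at chr12:85473770-85473889 on the plus strand (Fos), chr7:19310046-19310165 on the minus strand (Fosb), chr4:95052223-95052342 on the minus strand (Jun) and chr8:84978749-84978868 on the minus strand (Junb).
Fos: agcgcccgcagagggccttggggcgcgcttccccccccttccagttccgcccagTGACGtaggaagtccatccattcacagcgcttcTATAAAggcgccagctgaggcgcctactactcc
Fosb: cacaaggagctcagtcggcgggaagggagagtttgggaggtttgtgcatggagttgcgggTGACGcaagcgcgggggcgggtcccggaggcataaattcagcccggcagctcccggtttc
Jun: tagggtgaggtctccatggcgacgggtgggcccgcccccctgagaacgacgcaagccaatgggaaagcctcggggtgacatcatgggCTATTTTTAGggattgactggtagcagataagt
Junb: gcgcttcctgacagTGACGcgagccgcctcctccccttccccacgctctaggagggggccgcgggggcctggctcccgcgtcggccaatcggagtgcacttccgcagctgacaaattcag

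The search covered both strands of the 250 bases before the start. TGACG, the core of the element bound by CREB and ATF factors, stood upstream of Fos, Fosb and Junb and in 17.8% of all 32851 upstream windows of the same length. In Fos it began at position -66 and again at -129, beyond the bases printed, in Fosb at -60 and in Junb at -106. TATAAA began at -33 in Fos and was present in 12.4% of windows. The MEF2 element (the 10 bases in capitals in Jun, with any A or T at its 4 middle positions) began at -33 in Jun and was present in 0.508% of windows. The full element TGACGTCA (1.55% of windows, each also a match to TGACG), the AP-1 element TGANTCA (6.75%) and the CArG box of serum response factor (1.47%) had no match in the 250 bases of any of the 6 genes. The RefSeq start lies upstream of the GENCODE gene start for Jund and downstream of it for Fosl2, so for these genes the searched window is not the one before the gene start given below. These are matches of letters, not measured binding. Elements farther upstream than 250 bases, CArG boxes included, were not searched.

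The other regulatory feature is the AU-rich element, for which the pentamer ATTTA was counted in the 3′ untranslated region of each gene's principal GENCODE transcript (GRCm38). Fosl2 held 8, Fos and Jun 4 each, Junb 2, and Fosb, Fosl1 and Jund 1 each. Across 20395 genes the median was 1, and 26.3% of genes held at least 4. Per kilobase, Fos had 4.91, Junb 4.12, Jun 3.24, Jund 1.88, Fosl2 1.72 and Fosl1 1.57, against a median of 1.22 over all genes. Fosb, with 0.466 per kilobase, lay below that median. Windows of 30 bases are shown for the 3 genes with the most, with ATTTA in capitals, at chr12:85477090-85477119 (plus strand, Fos), chr4:95049210-95049239 (minus strand, Jun) and chr5:32156858-32156887 (plus strand, Fosl2).
Fos: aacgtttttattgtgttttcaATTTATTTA
Jun: gtgatcATTTAtaatcataggaaagATTTA
Fosl2: agaagaaattgacATTTAttttattATTTA

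The 2 families also differ in gene structure. The principal transcripts of Jun, Junb and Jund have 1 exon each, and those of Fos, Fosb, Fosl1 and Fosl2 have 4. In GRCm38, Fos (ENSMUSG00000021250) spans 85473890 to 85477273 of chromosome 12 on the plus strand, and Fosb (ENSMUSG00000003545) spans 19302696 to 19310051 of chromosome 7 on the minus strand. Fosl1 (ENSMUSG00000024912) lies on chromosome 19 at 5447547 to 5455946 and Fosl2 (ENSMUSG00000029135) on chromosome 5 at 32135801 to 32157842, both on the plus strand. Jun (ENSMUSG00000052684) lies on chromosome 4 at 95049034 to 95052222 and Junb (ENSMUSG00000052837) on chromosome 8 at 84974484 to 84978718, both on the minus strand, and Jund (ENSMUSG00000071076) on chromosome 8 at 70698949 to 70700616, plus strand. Jun overlaps Junos, Junb overlaps Prdx2, Fosl1 overlaps Ccdc85b and Jund overlaps Gm11175, each on the opposite strand. The strand setting of the counting is not given in the sources used here. Whether reads in the overlaps of these 4 genes were counted, and for which gene, is therefore not known. Fos, Fosb and Fosl2 overlap no annotated gene.

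The libraries held 11411532 to 15030171 reads at 4 h (recovered from the deposited values) and 8482933 to 18051300 at 24 h. A member had 123 to 4402 reads in a library. Tnfaip6 itself was read at 65.7 ± 22.3 normalised reads in KO slices and 81.4 ± 13.0 in WT slices at 4 h (SD, n = 3 each). At 24 h it stood at 6.51 ± 1.52 CPM in KO females (n = 4) and 4.60 ± 1.08 in Het females (n = 3), and at 6.70 ± 0.93 in KO males (n = 4) and 5.16 ± 1.24 in Het males (n = 3; SD; CPM is reads scaled to a common library size). Its mean was thus lower under the KO label at 4 h and higher at 24 h, a lost transcript was not seen, and genotype directions rest on the labels. Of the 4 h libraries, KO 1 and WT 1 had Xist reads. Of the female-labelled 24 h libraries, KO female 2 had Y-linked reads, which goes against its label. The markers of neurons, astrocytes and radial glia fixed for the tissue check were above 0 in every library. In slices of mixed cells, fewer cells of a type and less RNA per cell cannot be told apart.

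The first comparison asks how the subunits differed between KO and WT slices after 4 h of serum. Fos fell in KO slices, Fosb, Junb and Jun had lower values in every KO library than in any WT library without passing the test, and Fosl1, Fosl2 and Jund overlapped. Values here are normalised reads, that is, read counts divided by a size factor per library. Differences are log2 fold changes of KO over WT on the log2(value + 1) scale, tested with limma over 15181 genes with Benjamini-Hochberg adjustment, and called below an adjusted p of 0.05.

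Fos, the founding member of the family and a partner of every Jun protein, had 2153, 2242 and 1703 normalised reads in KO slices, against 3891, 3843 and 2948 in WT slices. The highest KO value lay below the lowest WT value. The log2 fold change was -0.81 ± 0.11 (SE; limma adjusted p = 0.0161). Fos was the single member called. Genes called lower were 5 of 15181, or 0.0329%. The call was lost in the limma fit without WT 1 (limma adjusted p = 0.191), without WT 2 (limma adjusted p = 0.140) and without KO 1 and WT 1 together (limma adjusted p = 0.0972). With any 1 library left out, the log2 fold change lay between -0.94 and -0.68.

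Fosb, whose truncated splice product ΔFosB accumulates in neurons after repeated stimulation, had 592, 563 and 376 normalised reads in KO slices, against 1154, 1225 and 725 in WT slices. The groups did not overlap, although WT 3 lay closer to the KO libraries than to the other WT libraries. At -1.01 ± 0.19 (SE), its log2 fold change was the furthest below 0 among the 7, with a limma adjusted p of 0.0900.

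Junb, an early Jun protein that can restrain Jun, had 1047, 1008 and 789 normalised reads in KO slices, against 1667, 1792 and 1219 in WT slices. KO 3 and WT 3 were the lowest of their groups, as they were for Fos and Fosb. Junb had a log2 fold change of -0.71 ± 0.13 (SE; limma adjusted p = 0.0900). Among 15181 genes ordered by p, Fos stood at place 6, Fosb at 14 and Junb at 16.

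The replicate numbers in the titles were taken to pair the 4 h libraries, from a correlation check on these same data and not from the labels. Other pairings were not compared, so calls made with this pairing are conditional on it. With the replicate number as a block, the log2 fold changes stay the same and limma called Fos (adjusted p = 0.000295), Fosb (0.000295) and Junb (0.00241). In that fit 27 genes, or 0.178%, were called lower. DESeq2 on the recovered reads called the same 3 members. The DESeq2 adjusted p-values were 4.73e-09 for Fos, 0.0444 for Fosb and 4.81e-05 for Junb. It called 54 genes lower, or 0.274% of 19722. That total includes genes left without an adjusted p, Fosl1 among them.

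Jun, the subunit that is phosphorylated by JNK kinases and binds its own promoter, had 1918, 1947 and 1663 normalised reads in KO slices, against 2118, 2323 and 2119 in WT slices. The groups did not overlap, and the difference was smaller than that of the other 3. Its log2 fold change was -0.25 ± 0.08 (SE; limma adjusted p = 0.192, and 0.134 with the replicate block). Over all genes tested, the KO libraries lay wholly below the WT libraries for 8.88%, against 4 of the 7 members. For each of these 4, the exact permutation test gave p = 0.1, two-sided, which is the smallest that 3 against 3 libraries allow.

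Fosl2 (Fra-2) had 1632, 2680 and 2042 normalised reads in KO slices, against 2527, 2480 and 2068 in WT slices. KO 2 was the highest of the 6 and KO 1 the lowest. Fosl2 had a log2 fold change of -0.18 ± 0.14 (SE; limma adjusted p = 0.593), and it turned to 0.05 without KO 1 and WT 1. Fosl1 (Fra-1) ranged from 155 to 177 normalised reads in KO slices and from 147 to 189 in WT slices. Jund ranged from 311 to 355 in KO slices and from 259 to 408 in WT slices. Their log2 fold changes were -0.03 ± 0.13 and -0.01 ± 0.14 (SE), with limma adjusted p-values of 0.943 and 0.976.

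**Figure D1:**
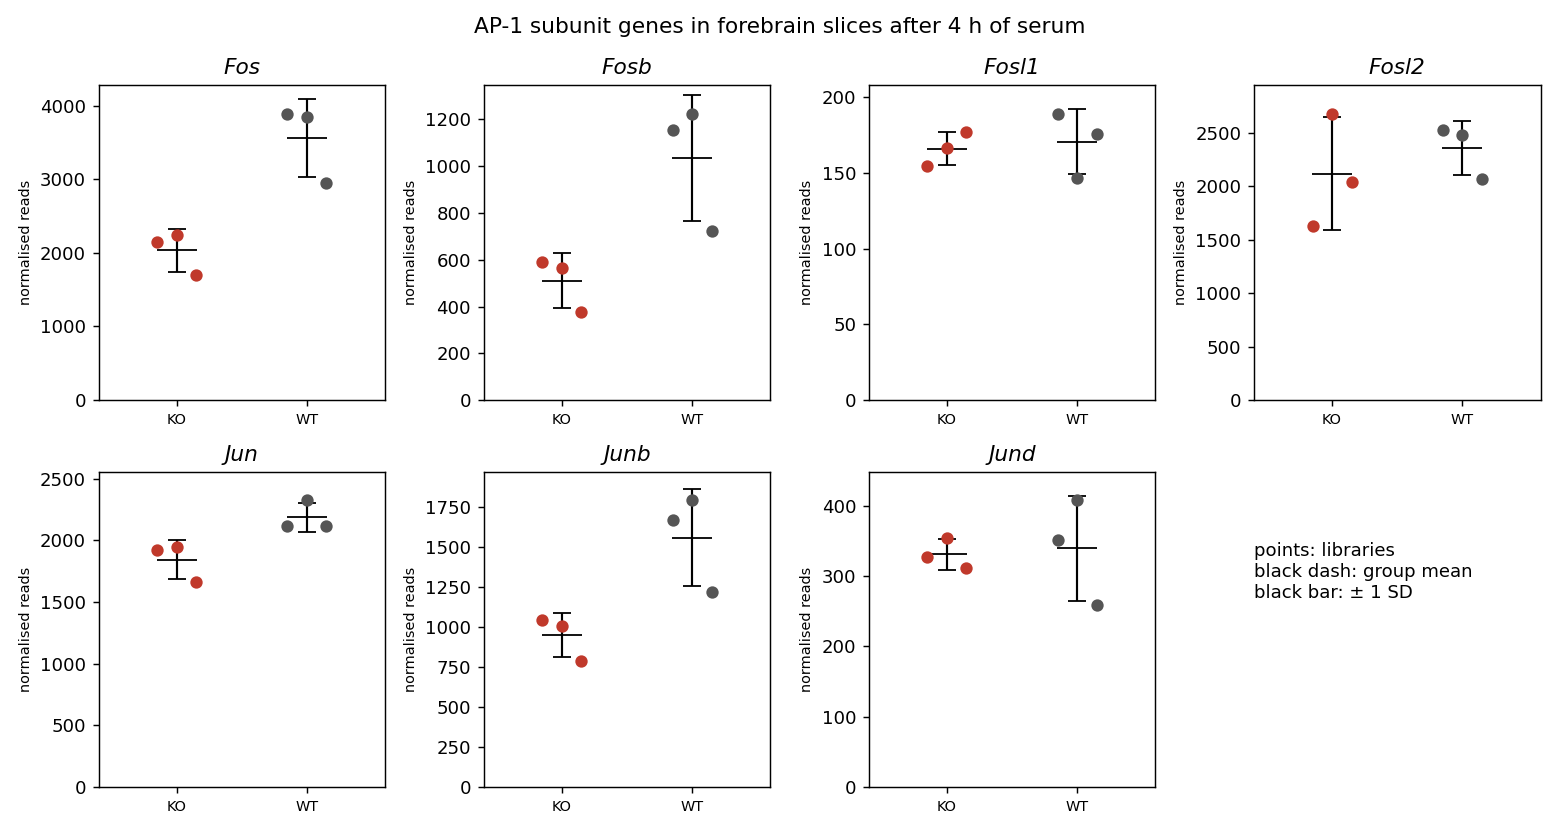
Normalised reads (y axis) of each AP-1 subunit gene in the 3 KO and 3 WT libraries at 4 h, with points for libraries, a dash for the group mean and a bar for 1 SD. The KO points of Fos, Fosb, Jun and Junb lie below all WT points, with Fos at 1703 to 2242 in KO and 2948 to 3891 in WT, whereas those of Fosl1, Fosl2 and Jund overlap.

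The genes around AP-1 were read from 6 lists written for this comparison. Among 16 other immediate early transcription factors, 13 had a negative log2 fold change at 4 h and 2 were called lower. The list's median was -0.25, against 0.00 over all genes tested. The 2 called were Nr4a1, an orphan nuclear receptor, at 1049 ± 66.6 normalised reads in KO slices and 1954 ± 368 in WT slices, and Egr1, a zinc finger factor, at 1502 ± 54.8 in KO slices and 2109 ± 102 in WT slices (SD, n = 3 each). Their log2 fold changes were -0.88 ± 0.11 and -0.49 ± 0.07 (SE), with limma adjusted p-values of 0.0128 and 0.0161. Btg2, an antiproliferative co-regulator induced with them, had -0.52 ± 0.10 (limma adjusted p = 0.0909).

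No gene of the other 5 lists was called at 4 h. Of 16 other bZIP genes tested, 9 were negative. Atf3, a stress-induced partner of Jun proteins, had a log2 fold change of -0.49 ± 0.10 (SE) and Maff, a small Maf protein without a transactivation domain, had -0.50 ± 0.15, with limma adjusted p-values of 0.0965 and 0.187. Atf4, a bZIP factor of the stress response, had -0.11 ± 0.07 (limma adjusted p = 0.489). Of 15 kinase phosphatases and Sprouty genes, which switch off the kinases that induce Fos, 9 were negative. Dusp1 stood at 475 ± 53.3 normalised reads in KO slices and 668 ± 23.4 in WT slices (SD, n = 3 each), a log2 fold change of -0.50 ± 0.09 (SE; limma adjusted p = 0.0900). Dusp6, a phosphatase of ERK kinases, had -0.29 ± 0.10 and Spry4, a Sprouty inhibitor of receptor signalling, had -0.26 ± 0.11, with limma adjusted p-values of 0.222 and 0.301.

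Of 10 genes of RNA and protein turnover of Fos and Jun, 6 were negative. Zfp36, which binds AU-rich elements and promotes decay, had -0.55 ± 0.11 on the log2 scale (limma adjusted p = 0.0909), and its relative Zfp36l1 had -0.41 ± 0.10 (0.131). Fbxw7, a ubiquitin ligase subunit that recognises Jun, had 0.22 ± 0.07 (limma adjusted p = 0.208). Of 31 upstream kinases and factors, 23 were positive, with a median of 0.08. Camk4, a calcium-dependent kinase of CREB, had 0.33 ± 0.09 (limma adjusted p = 0.161), Mef2c, a factor of the MEF2 family, had 0.23 ± 0.08 (0.240) and Crtc1, a coactivator of CREB, had 0.17 ± 0.06 (0.271). Of 24 AP-1 target genes tested, 21 were negative, with a median of -0.13. Hmox1, heme oxygenase, had -0.34 ± 0.12, Vegfa, the vascular growth factor, had -0.20 ± 0.08 and Ccnd1, cyclin D1, had -0.24 ± 0.10, with limma adjusted p-values between 0.243 and 0.301.

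Cell type markers moved with genotype at 4 h too, although none was called. All 10 excitatory neuron markers had a positive log2 fold change (median 0.32), and their summed level was 1446 to 1550 CPM (reads scaled to a common library size) in KO libraries and 1101 to 1278 in WT libraries. All 10 markers of endothelium and pericytes were negative (median -0.33; summed level 340 to 361 CPM in KO and 405 to 471 in WT), as were all 10 of astrocytes and radial glia (-0.16; 2493 to 2619 in KO and 2725 to 3073 in WT). All 9 tested markers of meninges and fibroblasts were negative (-0.46; 190 to 299 CPM in KO and 260 to 342 in WT), and of choroid plexus and ependyma 7 of 8 (-0.54; 49.2 to 64.5 in KO and 75.1 to 94.8 in WT). Summed levels did not overlap between groups for these lists except that of meninges and fibroblasts. Inhibitory neuron markers were negative in 6 of 10, microglia markers in 7 of 10, oligodendrocyte lineage markers in 8 of 10 and erythroid genes in 4 of 5. Markers of all neurons were positive in 8 of 10 (summed level 7053 to 7323 CPM in KO and 6654 to 6793 in WT), and mitochondrially encoded genes were negative in 8 of 10. Their part in the levels of the AP-1 genes was not tested.

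The second comparison asks how the subunits differed between KO and Het slices of each sex after 24 h. No member and no other gene was called with edgeR in females or in males (0.0% of 16013 genes in each), where 657 and 1100 genes had an unadjusted p under 0.05. DESeq2 called 1 gene in each sex and no member. Levels are CPM, counts divided by TMM-scaled library sizes, and differences are log2 fold changes of KO over Het from edgeR's quasi-likelihood fit over all 14 libraries, adjusted over all genes tested.

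In females, all 7 log2 fold changes were positive, with a median of 0.25 against 0.00 over all genes tested. Fos stood at 301, 252, 137 and 172 CPM in KO females, against 101, 147 and 115 CPM in Het females. KO female 3 lay below the highest Het library, and the other KO libraries lay above it. Fos thus had a log2 fold change of 0.83 ± 0.31 (SE; edgeR adjusted p = 1.00), with an exact permutation p of 0.114, two-sided, where 0.0571 is the smallest that 4 against 3 libraries allow. Fosb stood at 72.1, 61.4, 19.9 and 44.7 CPM in KO females, against 20.5, 27.1 and 33.0 CPM in Het females. KO female 3 was again the lowest, here below every Het library. Its log2 fold change was 0.87 ± 0.40 (SE; edgeR adjusted p = 1.00; exact permutation p = 0.229).

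Junb stood at 99.7, 76.5, 47.8 and 71.5 CPM in KO females, against 40.4, 48.2 and 41.0 CPM in Het females. KO female 3 lay just below Het female 2, and the other KO libraries lay above every Het library. Junb had a log2 fold change of 0.77 ± 0.22 (SE; edgeR adjusted p = 1.00; exact permutation p = 0.114) and stood at place 23 of 16013 genes ordered by edgeR's p. Jun stood at 118 to 158 CPM in KO females and 108 to 124 CPM in Het females, with a log2 fold change of 0.25 ± 0.10 (SE). Of the other members, Fosl1 had 0.12 ± 0.16, Fosl2 0.05 ± 0.24 and Jund 0.17 ± 0.14 on the log2 scale (SE), and Fosl2 turned to -0.20 without Het female 2. No member's female groups were free of overlap in the upward direction, which 2.3% of all genes tested were.

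Without KO female 2, the library with Y-linked reads, the female log2 fold changes were 0.75 for Fos, 0.75 for Fosb and 0.75 for Junb, and no gene was called. KO female 1 and KO female 3 also stood apart in choroid plexus and ependyma markers, with summed levels of 1552 and 2899 CPM, as did KO male 3 with 537 CPM. The other 11 libraries had 72.1 to 118 CPM. Ttr, the leading choroid plexus transcript, or Folr1 was at 0 in 6 of those 11. Of these libraries KO female 1 was the highest in Fos and KO female 3 the lowest KO female. Without the 3 libraries, a setting chosen after their levels were seen, the female log2 fold changes were 0.81 ± 0.34 for Fos, 0.98 ± 0.39 for Fosb and 0.78 ± 0.21 for Junb (SE), and again no gene was called.

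In males, Fos stood at 153, 242, 162 and 112 CPM in KO slices, against 104, 84.1 and 214 CPM in Het slices. Het male 3 lay inside the upper part of the KO range. The log2 fold change was 0.33 ± 0.31 (SE; edgeR adjusted p = 0.850). Fosb stood at 37.9, 62.4, 39.4 and 22.2 CPM in KO males, against 19.7, 15.1 and 42.6 CPM in Het males, with the same Het library on top. Its log2 fold change was 0.66 ± 0.41 (SE; edgeR adjusted p = 0.780). Junb ranged from 47.7 to 78.3 CPM in KO males and from 34.8 to 58.1 CPM in Het males, a log2 fold change of 0.42 ± 0.22 (SE). These male values moved with single Het libraries. Without Het male 3 the log2 fold changes were 0.83 ± 0.29 for Fos and 1.22 ± 0.43 for Fosb (SE), each with an edgeR adjusted p of 0.751. Without Het male 2 they were 0.07 for Fos, 0.36 for Fosb and 0.20 for Junb.

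Fosl2 was the 1 member whose male groups did not overlap. It stood at 179, 198, 161 and 154 CPM in KO males, against 137, 125 and 119 CPM in Het males. The log2 fold change was 0.45 ± 0.24 (SE; edgeR adjusted p = 0.751), and the exact permutation test gave p = 0.0571, two-sided, the smallest that 4 against 3 libraries allow. KO libraries lay wholly above Het libraries for 3.4% of all genes tested in males. Jun, Jund and Fosl1 had log2 fold changes of -0.04 ± 0.10, -0.03 ± 0.14 and -0.03 ± 0.16 (SE), and Jun varied less in KO males (123 to 132 CPM) than in Het males (109 to 153 CPM).

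**Figure D2:**
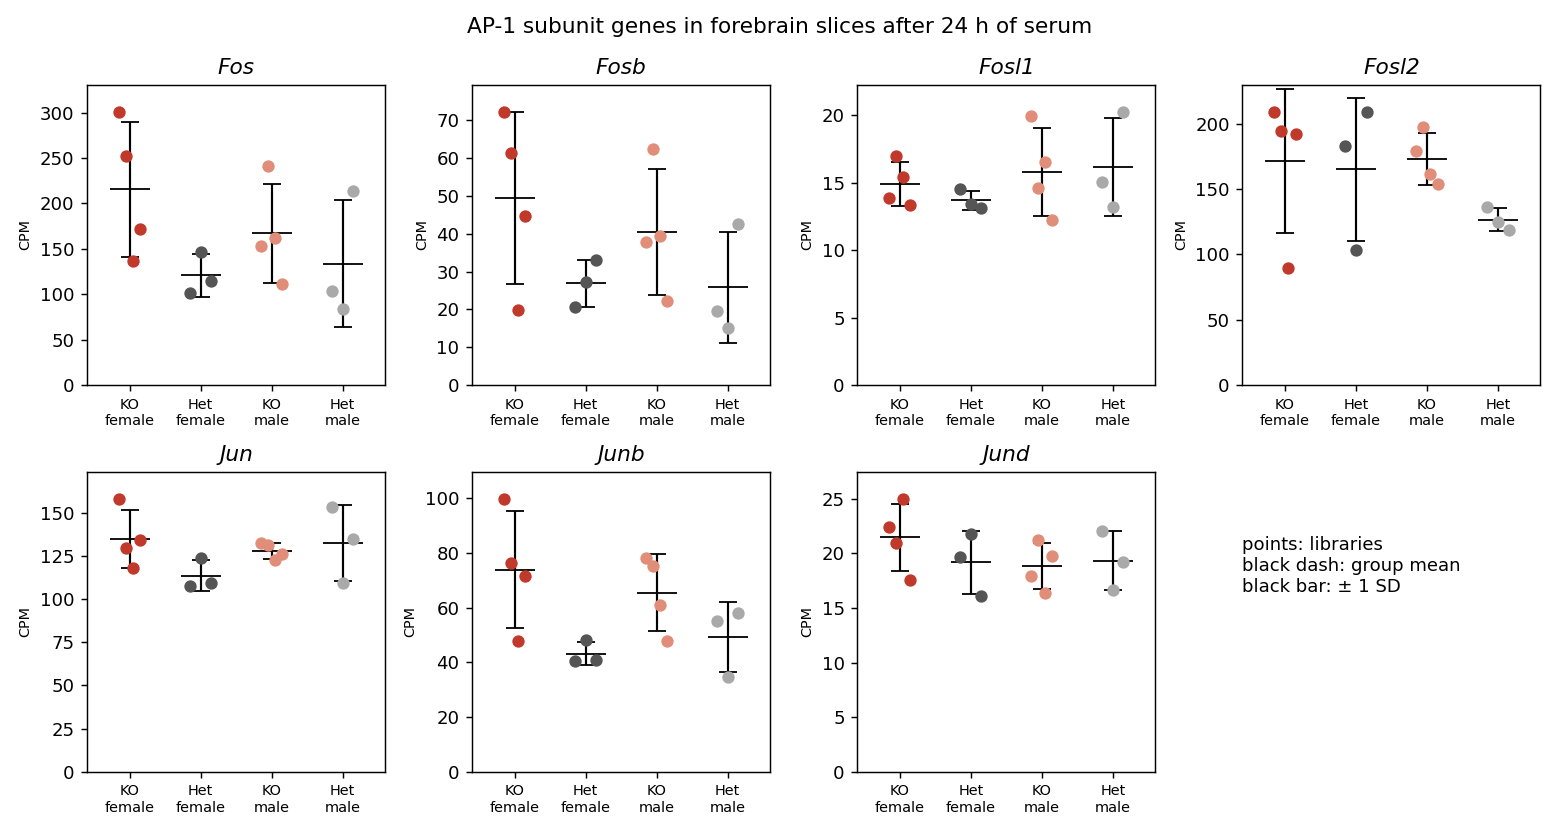
CPM (y axis) of each AP-1 subunit gene in the KO female, Het female, KO male and Het male libraries at 24 h, with points for libraries, a dash for the group mean and a bar for 1 SD. KO points spread widely for Fos, from 137 to 301 in females, and Fosl2 in males is the panel pair without overlap, 154 to 198 in KO and 119 to 137 in Het.

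Averaged over the sexes, all 7 members had positive log2 fold changes, 0.59 ± 0.16 for Junb, 0.58 ± 0.22 for Fos, 0.77 ± 0.29 for Fosb, 0.25 ± 0.17 for Fosl2, 0.10 ± 0.07 for Jun, 0.07 ± 0.10 for Jund and 0.05 ± 0.12 for Fosl1 (SE). The edgeR adjusted p-values lay between 0.738 and 0.973, and the share of genes called was 0.0%. For Junb the unadjusted edgeR p was 0.00149, and permuting genotype within sex gave an exact p of 0.0163 over 1225 arrangements, two-sided. The same exact permutation test gave 0.0522 for Fos and 0.0669 for Fosb, and the smallest value it allows is 0.00163.

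The difference between the sexes in the genotype contrast was tested itself and was not called for any member (0.0% of genes). For Jun the male contrast was 0.29 below the female one on the log2 scale (-0.29 ± 0.15, SE; edgeR adjusted p = 0.977). For Fos the male-minus-female difference was -0.51 ± 0.44 (SE), for Junb -0.35 ± 0.31, for Fosb -0.21 ± 0.57, for Jund -0.19 ± 0.20, for Fosl1 -0.15 ± 0.23 and for Fosl2 0.40 ± 0.33. Between males and females irrespective of genotype, 3 genes (0.0187%) were called lower in males and no member was. The log2 differences of males minus females were -0.11 ± 0.22 for Fos, -0.19 ± 0.29 for Fosb, 0.16 ± 0.12 for Fosl1, -0.18 ± 0.17 for Fosl2, 0.07 ± 0.07 for Jun, 0.00 ± 0.15 for Junb and -0.10 ± 0.10 for Jund (SE).

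**Figure D3:**
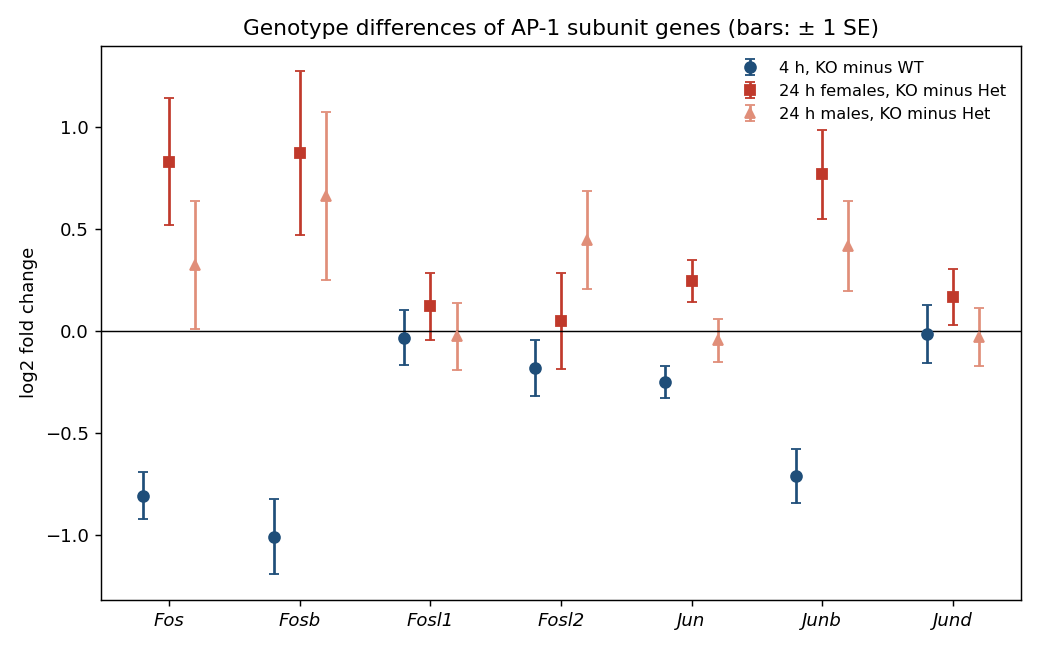
Log2 fold changes (y axis) with 1 SE for each AP-1 subunit gene (x axis): KO minus WT at 4 h, KO minus Het in females at 24 h and KO minus Het in males at 24 h. Fos, Fosb and Junb lie between -1.01 and -0.71 at 4 h and between 0.33 and 0.87 at 24 h, while Fosl1 and Jund stay within 0.17 of 0. In the fits plotted, which hold no replicate block, only Fos at 4 h passed the test. With that block, a pairing taken from these data and not from the labels, limma called Fosb and Junb at 4 h too. DESeq2 called both at 4 h without the block.

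The 4 h and 24 h differences were not tested against each other, and their control genotypes differ. Of the lists read at 4 h, the other immediate early factors had 14 of 16 positive log2 fold changes in females and 13 of 16 in males at 24 h, with medians of 0.29 and 0.21. AP-1 target genes were positive for 23 of 27 in females, median 0.16, and for 19 of 27 in males, median 0.10. Kinase phosphatases and Sprouty genes were positive for 13 of 15 in females and 14 of 15 in males, other bZIP genes for 14 and 11 of 16, upstream kinases and factors for 19 and 24 of 31, and turnover genes for 5 and 7 of 10. None of them was called. At 24 h the excitatory neuron markers were positive for all 10 in females (summed level 1203 to 1405 CPM in KO and 1125 to 1348 in Het) and for 7 of 10 in males (1133 to 1350 in KO and 1003 to 1267 in Het).

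The other marker lists were read at 24 h too, and none of their genes was called. In females, inhibitory neuron markers were negative for 9 of 10 (median -0.13; summed level 756 to 990 CPM in KO and 914 to 977 in Het) and meningeal and fibroblast markers for 8 of 10 (242 to 614 CPM in KO and 484 to 552 in Het). Choroid plexus and ependyma markers were positive for 9 of 10 (median 0.79) and erythroid genes for all 5 tested (median 0.73; 41.3 to 225 CPM in KO and 56.0 to 93.8 in Het). Positive values were found for 8 of 10 markers of all neurons, 7 of 10 of the oligodendrocyte lineage, 5 of 10 of endothelium and pericytes, 4 of 10 of astrocytes and radial glia, 4 of 10 of microglia and 6 of 10 mitochondrially encoded genes.

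In males, markers of astrocytes and radial glia were negative for 9 of 10 (median -0.21; 3736 to 4263 CPM in KO and 3606 to 5972 in Het), as were those of the oligodendrocyte lineage (-0.23; 526 to 540 in KO and 553 to 656 in Het) and of microglia (-0.19; 273 to 333 in KO and 324 to 414 in Het). Meningeal and fibroblast markers were positive for 8 of 10 (median 0.24; 515 to 680 CPM in KO and 427 to 522 in Het). The summed level of the oligodendrocyte lineage did not overlap between KO and Het males, and the other ranges given did. Negative values were found for 7 of 10 inhibitory neuron markers (811 to 982 CPM in KO and 916 to 983 in Het), 7 of 10 of endothelium and pericytes, 5 of 10 of choroid plexus and ependyma and 4 of 5 erythroid genes, and positive ones for 7 of 10 markers of all neurons and 8 of 10 mitochondrially encoded genes. The part of these lists in the levels of the AP-1 genes was not tested.

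To compare levels between genes, reads were divided by exon length and library total (RPKM). Fos was the highest per length in every group, with a mean of 65.7 RPKM in KO and 118 in WT slices at 4 h, 90.6 in KO and 51.3 in Het females, and 70.7 in KO and 58.0 in Het males at 24 h. Jun came next with 35.6 to 53.5 RPKM over the 6 group means, followed by Junb with 18.8 to 52.8, Fosl2 with 13.3 to 19.0 and Jund with 11.3 to 15.9. Fosb (4.21 to 12.9 RPKM) and Fosl1 (6.22 to 8.07) were the lowest, and Fosb stood above Fosl1 in WT slices at 4 h and in KO females. The length used was the union of a gene's exons. It exceeds the principal transcript for Fosb (6243 against 3782 bases), Fosl2 (9680 against 6537) and Junb (2301 against 1809). The union is also longer for Fos (2352 against 2108) and Fosl1 (2033 against 1864), and equals the principal transcript for Jun and Jund. The order below Fos, Jun against Junb included, and the shares and ratios given below therefore depend on the length chosen. In WT slices at 4 h Jun (51.9 to 56.1 RPKM) and Junb (41.8 to 60.0 RPKM) did not differ beyond their spread.

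The order of Fos over the 24 h groups in CPM was KO females (215 ± 74.6, n = 4), KO males (167 ± 54.4, n = 4), Het males (134 ± 69.8, n = 3) and Het females (121 ± 23.5, n = 3; SD). Each neighbour in that order lay within the spread of the next. Levels per length set across the 2 tables are side by side only, since they hold different gene sets. Group means of Jund were 15.1 to 15.9 RPKM at 4 h and 11.3 to 12.7 at 24 h, and those of Fosl1 were 6.22 to 6.55 at 4 h and 6.72 to 8.07 at 24 h. Junb had 31.3 RPKM in KO and 52.8 in WT slices at 4 h, and 31.8 in KO females, 18.8 in Het females, 28.4 in KO males and 21.8 in Het males at 24 h.

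The make-up of the summed AP-1 transcripts was compared as shares. Fos family genes held 50.1%, 52.6% and 50.7% of the summed RPKM in KO libraries at 4 h, against 57.8%, 55.2% and 55.3% in WT libraries. The groups did not overlap, and the Jun family held the remainder. Fos alone took 35.4 ± 1.32% in KO and 42.3 ± 1.14% in WT slices, and Jund took 8.18 ± 0.498% in KO and 5.65 ± 0.560% in WT slices (SD, n = 3 each). Shares within a library sum to the whole, so lower levels of Fos raise the shares of the others. Jund itself had a mean of 15.1 RPKM in KO and 15.9 in WT slices. At 24 h the Fos family share was 51.8% to 62.8% in KO females and 53.4% to 57.1% in Het females, and 50.3% to 61.8% in KO males and 44.6% to 60.3% in Het males. Those ranges overlapped in both sexes.

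**Figure D4:**
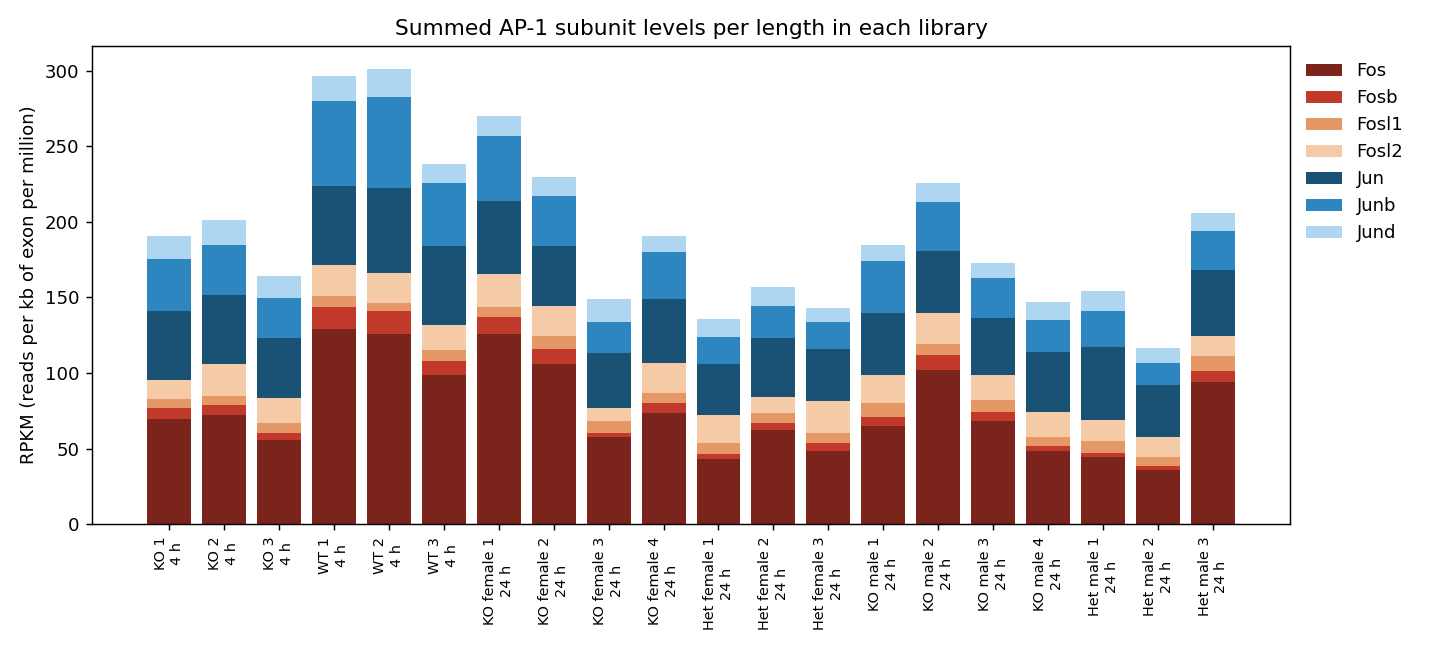
Stacked RPKM (y axis) of the 7 AP-1 subunit genes in each of the 20 libraries (x axis), Fos family in red shades and Jun family in blue shades. Fos, the bottom segment, is the largest in every bar except that of Het male 1, where Jun exceeds it (Fos to Jun ratio 0.916), and the 3 KO bars at 4 h stand below the 3 WT bars.

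The ratio of Junb to Jun per length was 0.756, 0.718 and 0.658 in KO libraries at 4 h, against 1.09, 1.07 and 0.797 in WT libraries. It was 0.875, 0.819, 0.562 and 0.739 in KO females at 24 h, against 0.520, 0.539 and 0.520 in Het females. Within each of these pairs of groups the ratios did not overlap, lower in KO at 4 h and higher in KO in females at 24 h. The ratios were not tested, and they restate the Junb and Jun levels given above. An exact permutation test with these group sizes could give no p below 0.1 at 4 h or 0.0571 in females, two-sided. In males the ratio was 0.525 to 0.819 in KO and 0.441 to 0.599 in Het, with overlap. Junb overlaps Prdx2 and Jun overlaps Junos, so these ratios may include reads of those partners or lack reads left out as shared. Other ratios were computed too. Those of Fos to Jun and of Fosl2 to Fos did not overlap at 4 h but did in females at 24 h. That of Fosb to Fos overlapped in both comparisons. How often ratios of other gene pairs separate the groups was not computed.

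Across the 14 libraries at 24 h, Fos, Fosb and Junb varied together, as did Jun and Junb. All 21 pairs of members were correlated on log2 CPM, with 100000 permutations, and 4 pairs had a Benjamini-Hochberg adjusted p under 0.05 over the 21 by both Pearson and Spearman. The share of other gene pairs that would reach such values was not computed, so the count does not show a trait particular to these genes. For Fos and Fosb, Pearson's r was 0.94 (permutation p = 1e-05, the smallest these permutations can give; adjusted 0.00021) and Spearman's rho 0.95 (permutation p = 1e-05). Within the 4 groups, after removal of group means, r was 0.93, and without the 2 libraries farthest from the median of Fos it was 0.90. For Fos and Junb, r was 0.87 (permutation p = 8e-05; adjusted 0.00063) and rho 0.87 (permutation p = 9e-05), with 0.81 within groups and 0.77 without the 2 farthest libraries.

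For Fosb and Junb, r was 0.87 (permutation p = 9e-05, adjusted 0.00063) and rho 0.82 (permutation p = 0.0006). Within groups r was 0.84, and without the 2 libraries farthest from the median of Fosb it was 0.77. For Jun and Junb, r was 0.78 (permutation p = 0.001, adjusted 0.0053) and rho 0.75 (permutation p = 0.0029). Within groups r was 0.83, and without the 2 libraries farthest from the median of Jun it was 0.87. Fos and Jun had r = 0.59 and rho = 0.60 (permutation p = 0.028 and 0.027; adjusted 0.0987 and 0.0958). Within groups r was 0.54, and without the 2 libraries farthest from the median of Fos it was 0.30. Leaving out the extremes of Fos also narrows its range, so the lower value cannot show what the relation rests on. Fos and Fosl2 had r = 0.34 and rho = 0.45 (permutation p = 0.23 and 0.11; adjusted 0.367 and 0.236). All these points share library depth and slice composition.

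**Figure D5:**
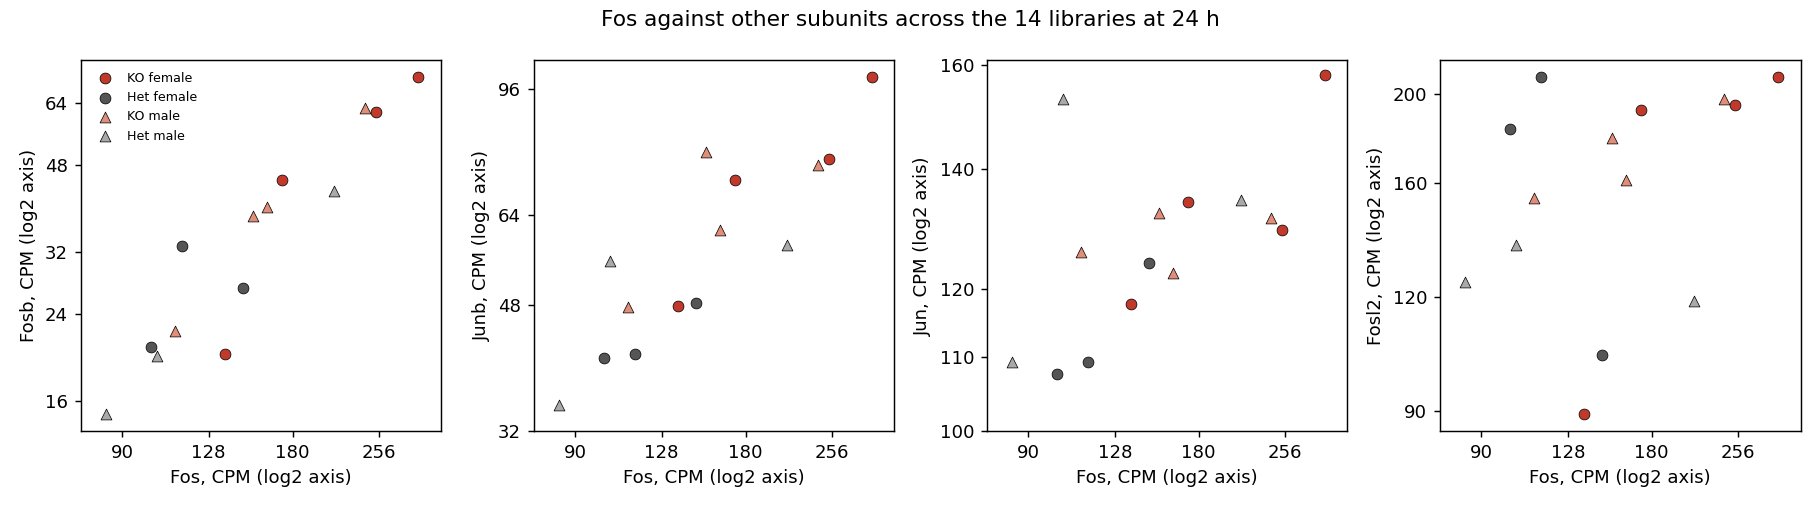
CPM of Fosb, Junb, Jun and Fosl2 (y axes, log2) against CPM of Fos (x axes, log2) in the 14 libraries at 24 h, circles for females and triangles for males, KO in red shades and Het in grey shades. Fosb and Junb climb with Fos across all groups (r = 0.94 and 0.87), whereas Fosl2 scatters (r = 0.34).

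The genes most like each member in the same 14 libraries were taken as the 3 highest Pearson correlations of log2 CPM among 12356 genes with a mean of at least 5 CPM. For Fos these were Ppp1r15a (r = 0.96), Fosb (0.94) and Npas4 (0.93), for Fosb Nr4a1 (0.97), Npas4 (0.95) and Fos (0.94), and for Junb Dusp1 (0.92), Nr4a3 (0.89) and Nr4a1 (0.89). Across the 6 libraries at 4 h the same pairs had r between 0.87 and 0.99. For Jun they were Arhgap18 (0.87), Rpap2 (0.85) and Gm40841 (0.85), with r of 0.83, -0.34 and 0.27 at 4 h. For Fosl2 they were Mynn (0.93), Arl5b (0.93) and Rnd3 (0.92), with r of 0.83, 0.32 and 0.90 at 4 h. For Fosl1 they were Lrrc59, Alas1 and Kremen1 (0.85 to 0.91) and for Jund Vwa8, Cox8a and S100a13 (0.84 to 0.87), with r between -0.35 and 0.34 at 4 h. These are the highest of many correlations and are given as a description. Group means were not removed, so the r values at 4 h also hold the difference between KO and WT.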

How the data were processed

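RNA-seq libraries were made with SMART-Seq v4 chemistry, per the labels' protocols. TopHat2, HTSeq, DESeq2 1.38.3 and the build GRCm38 (mm10) are named, without roles, per the submitters' processing notes. Values deposited for 24 h are unnormalised read counts. Those deposited for 4 h are a normalised signal, reads divided by a size factor per library: 100% of values came out as whole reads within a tolerance of 0.05. It was therefore tested with limma 3.58.1 (intensity trend, log2(value + 1), mean value of at least 10, 15181 genes), and edgeR and DESeq2 1.42.0 on the recovered reads were alternatives. Of these, edgeR called 7 genes, as limma did. Counts at 24 h were tested with edgeR 4.0.16 (TMM, default filter, 16013 genes, 4 group means over 14 libraries, quasi-likelihood F test) under R 4.3.3. All tests were two-sided. With limma and edgeR the Benjamini-Hochberg adjustment ran over all genes tested, and the threshold was 0.05 for every tool. DESeq2 left some genes without an adjusted p, Fosl1 at 4 h among them.

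Same-numbered KO and WT libraries at 4 h deviated together from their group means (r = 0.26, 0.14 and 0.18 across genes). The numbers were therefore taken to pair them, from this check and not from the labels. Other pairings of these libraries were not compared, so the check cannot establish that they are pairs. Pairs of libraries within a table differed by more than sampling noise, with a chi-square of 3.16 to 13.3 per degree of freedom. Symbols were matched for 19673 identifiers at 4 h and 51633 at 24 h. RPKM used the union of GENCODE exons. Members and lists were chosen with earlier results of these data known. All 7 members are named in every comparison; from each pathway list, genes past the threshold and the 3 with the smallest p at 4 h. Alternatives were another pseudocount, filter, scaling, tool, the replicate block and libraries left out.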

Additional observations from a re-analysis of the deposited data

Results flagged for a closer look

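A single library stood apart from the rest of its group in a check of 14 sets of 4 libraries. Fosl2 was at 89.3 CPM in KO female 3, whereas the other 3 KO female libraries were at 192 to 209 CPM. Chance sets a library apart in this way in about 1 of 20 groups. Het female 2, at 104 CPM, was the next lowest female library for Fosl2. In KO female 3 the markers of choroid plexus and ependyma summed to 2899 CPM, the highest of all libraries, and their part in the Fosl2 value was not tested.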

How the results depend on the processing

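At 4 h the count of 7 called genes and 1 called member moved to 161 and 3 with DESeq2, 38 and 3 with the replicate block, 10 and 2 without a filter on low values, and 1 and 0 without the 2 libraries with Xist reads. Leaving out 1 library gave 1 to 211 genes and 0 to 3 members, with 0 members without WT 1 or WT 2 and 3 without WT 3 or KO 2. The cause was not tested. The log2 fold changes of Fos, Fosb, Jun and Junb kept their negative sign in every alternative. Members near 0 changed sign. Without the libraries with Xist reads, Fosl1 was at 0.10, Fosl2 at 0.047 and Jund at 0.031, and with 1 library left out Fosl1 ranged from -0.14 to 0.045 and Jund from -0.20 to 0.13.

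At 24 h the fit without a filter on low counts estimated an infinite prior degree of freedom (6.47 in the filtered fit) and called 180 genes and 3 members in females, 220 and 4 in males, 263 and 4 averaged, 165 and 1 for the difference between sexes, and 215 and 0 for males minus females. With at least 100 counts in total, a setting chosen after that fit was seen, the prior was 6.45 and no genotype contrast called a gene. DESeq2 called 1 gene in females, 1 in males, 5 averaged, 1 for the difference and 5 for males minus females, without a member. Same-numbered libraries at 24 h had r from -0.16 to 0.09. Their numbers were not taken to pair them, although this check cannot exclude a pairing. The replicate block, fitted all the same, gave 6 genes in females, 6 averaged and 4 for the difference, again without a member. With that block Fosl2 was at -0.035 in females, Fosl1 at 0.082 in males and the Fosb difference at 0.17. With 1 library left out, 0 to 2 genes were called averaged over sexes and 2 to 9 for males minus females, 9 of them without KO female 2, the library with Y-linked reads. Without the 3 choroid plexus libraries, no gene was called for males minus females, and Jund was at 0.036 in males, 0.032 for the difference and 0.016 for males minus females.

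Leaving out 1 library, the 24 h log2 fold changes that changed sign ranged from -0.20 to 0.27 for Fosl2 in females (-0.017 without KO female 2), from -0.17 to 0.16 for Fosl1, -0.17 to 0.074 for Jun and -0.13 to 0.076 for Jund in males, and from -0.021 to 0.14 for Fosl1 averaged. For the difference between sexes they ranged from -0.76 to 0.0016 for Fos, -0.51 to 0.35 for Fosb and -0.29 to 0.042 for Fosl1. For males minus females they ranged from -0.37 to 0.015 for Fos and -0.083 to 0.11 for Junb, and Junb was at -0.0027 without the filter. The genotype differences of Fos, Fosb and Junb at 24 h stayed positive in females, in males and averaged under all alternatives.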
